A study of Homo sapiens with 6 samples.

Results

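Abundant autosomal long non-coding RNAs were followed in RNA sequencing of HCT-116, an established human colon carcinoma cell line. The list held 10 genes, and 9 of them had a row of that symbol among the 60546 gene identifiers of the deposited table: GAS5, SNHG1, SNHG5, SNHG8, SNHG12, NEAT1, MALAT1, PVT1 and UCA1. CCAT1 had no row of its symbol and was not analysed here. All 9 passed the filter on low values and were among the 26536 genes tested.

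The study asked what GOLPH3, a Golgi phosphoprotein, changes in colon cancer cells. By the labels and methods, 3 libraries were labelled GOLPH3, from wild-type HCT-116 cells infected with a PMSCV vector carrying the human GOLPH3 cDNA, and 3 were labelled Vector, from the same cell line with the empty PMSCV vector, all grown in DMEM with fetal bovine serum. The methods describe RNA from different generations of 1 stable line per arm, so the p-values measure the spread between libraries of a line and not between independently made lines. Each title also holds a P number, whose meaning the labels do not give. It was P8, P12 and P13 in the libraries labelled GOLPH3 and P12, P11 and P13 in those labelled Vector. P12 and P13 thus occurred under both labels, and each library is named below by its label and P number.

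The libraries held 15708846 to 21900764 reads, and the deposited values were whole reads multiplied by 1 constant per library, called normalized reads below. GOLPH3 RNA was not higher in the libraries that carry its name (log2 difference −0.31, limma adjusted p = 0.609). It had 1630, 1272 and 1383 normalized reads there at P8, P12 and P13. The Vector libraries at P12, P11 and P13 had 1968, 1892 and 1472. The paper reports overexpression in its HCT-116 line by western blot, which measures protein, whereas these values are RNA. The summed level of 22 mesenchymal and HEK293-like marker genes was 634 to 940 normalized reads under the GOLPH3 label and 13224 to 32086 under the Vector label, and 20 of the 22 were lower under the GOLPH3 label in limma's test. No fewer than 15 of the 22, CDH2, SOX2 and GATA4 among them, were at or under 3 reads in every library labelled GOLPH3. By western blot the paper reports more N-cadherin, the protein of CDH2, in its GOLPH3-overexpressing cells. The list of 22 was drawn in part from earlier results of these data, so both counts are descriptions and not independent evidence. The summed level of 20 colon epithelial markers was 78375 to 144571 under the GOLPH3 label and 39922 to 45201 under the Vector label, and CDX1, KRT20 and TFF3 were at or under 3 reads in all 6 libraries. These markers separated the libraries as the labels did, so a difference by label and a difference by what the markers follow cannot be told apart. The labels are used as given, and these values do not establish the construct or the identity of the cells behind them. In bulk RNA, fewer cells of a type and less RNA per cell cannot be told apart either.

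Long non-coding RNAs are transcripts made and processed much like messenger RNAs but not known for a protein product. GAS5 and the SNHG genes are small nucleolar RNA (snoRNA) host genes: their introns release snoRNAs, which guide chemical modification of ribosomal RNA, while the spliced exons are turned over quickly, in several cases by nonsense-mediated decay during translation. Many such hosts begin with a terminal oligopyrimidine stretch, a C followed by further C and T bases, the kind of start that ribosomal protein genes use and that ties them to growth signals. NEAT1 is the scaffold of paraspeckles and MALAT1 is concentrated in nuclear speckles, the stores of splicing factors. PVT1 lies next to the MYC oncogene, and UCA1 was named for its expression in urothelial carcinoma.

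The starts of the 5 snoRNA hosts are shown because 4 of them were called as higher at P12 and the fifth was not. Each line gives 100 bases on the gene's strand from the RefSeq promoter table for GRCh38.p14, 50 before the annotated start and 50 from it on, so that the first transcribed base is the 51st. Capitals mark the unbroken run of C and T that begins at that base.
GAS5: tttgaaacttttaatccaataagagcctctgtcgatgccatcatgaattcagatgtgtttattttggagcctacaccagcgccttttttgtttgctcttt
SNHG1: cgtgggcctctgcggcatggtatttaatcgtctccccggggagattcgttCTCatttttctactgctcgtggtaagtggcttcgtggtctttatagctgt
SNHG5: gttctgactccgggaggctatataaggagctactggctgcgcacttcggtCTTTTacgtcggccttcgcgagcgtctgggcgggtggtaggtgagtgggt
SNHG8: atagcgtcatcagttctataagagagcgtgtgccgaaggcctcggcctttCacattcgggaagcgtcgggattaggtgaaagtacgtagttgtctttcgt
SNHG12: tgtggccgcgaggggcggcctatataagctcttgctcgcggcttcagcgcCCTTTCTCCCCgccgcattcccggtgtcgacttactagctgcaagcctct
The stretches are GAS5 at chr1:173868996-173869095 on the minus strand, SNHG1 at chr11:62855836-62855935 on the minus strand, SNHG5 at chr6:85678684-85678783 on the minus strand, SNHG8 at chr4:118278712-118278811 on the plus strand and SNHG12 at chr1:28581824-28581923 on the minus strand. SNHG12 had a run of 11 bases and SNHG5 one of 5. Of all 35116 windows in the table, 4.07% began with C and a run of at least 5. SNHG1 had a run of 3 bases, SNHG8 began with a single C, and the RefSeq start of GAS5 was an A. That GAS5 start, at position 173869045, lay upstream of the GENCODE 29 start at 173868882. The RefSeq starts of the other 4 lay inside the GENCODE gene. They were at 28581873 against 28583132 for SNHG12 and 62855885 against 62855914 for SNHG1. For SNHG5 they were 85678733 against 85678748 and for SNHG8 118278762 against 118278709. Each run thus belongs to the start as RefSeq has it. In the full windows of 300 bases, searched on both strands, GGGCGG occurred in SNHG1, SNHG5, SNHG8 and SNHG12 and in 45.0% of all windows. CCAAT occurred in GAS5 and SNHG5 and in 34.6%, and TATAAA occurred in SNHG1 and in 11.5%. In the SNHG1 stretch shown, the match was on the other strand (tttata) and after the start. The SNHG5 and SNHG12 stretches hold tatataag before the start, which a search for TATAAA does not count. None of the 5 windows held CACGTG, TGACGTCA or TTGCATCA, which occurred in 7.26%, 1.85% and 0.866% of all windows. NEAT1 and UCA1 had no window in the table, and the start of PVT1 is not reported here.

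The 9 RNAs together took 0.141% to 0.293% of a library's reads, the most in the GOLPH3 library at P12 and the next most, 0.228%, in the Vector library at P12. By reads, GAS5, NEAT1 and SNHG1 ranked 1, 2 and 3 among 14504 autosomal long non-coding RNA genes, MALAT1 ranked 5 and SNHG8 ranked 30, the lowest of the 9. Per kilobase of exon the order was GAS5, SNHG1, SNHG8, SNHG5, MALAT1, NEAT1, UCA1, SNHG12 and PVT1. The level of GAS5 was 1349 to 3514 normalized reads per kilobase and that of SNHG1 was 1126 to 2559, and GAS5 was the higher in 5 of 6 libraries. SNHG1 stood above SNHG8, SNHG8 above SNHG5 and MALAT1 above NEAT1 per kilobase in all 6 libraries. Neighbours in the rest of the order changed places between libraries: SNHG5 was above MALAT1 in 4 of 6 libraries, NEAT1 above UCA1 in 4, UCA1 above SNHG12 in 3 and SNHG12 above PVT1 in 3. At the low end PVT1 spanned 122 to 410 normalized reads per kilobase. NEAT1 makes a short and a long isoform from 1 start, which a gene-level value cannot separate, and its exon length of 22767 bases is that of the long one.

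**Figure D1:**
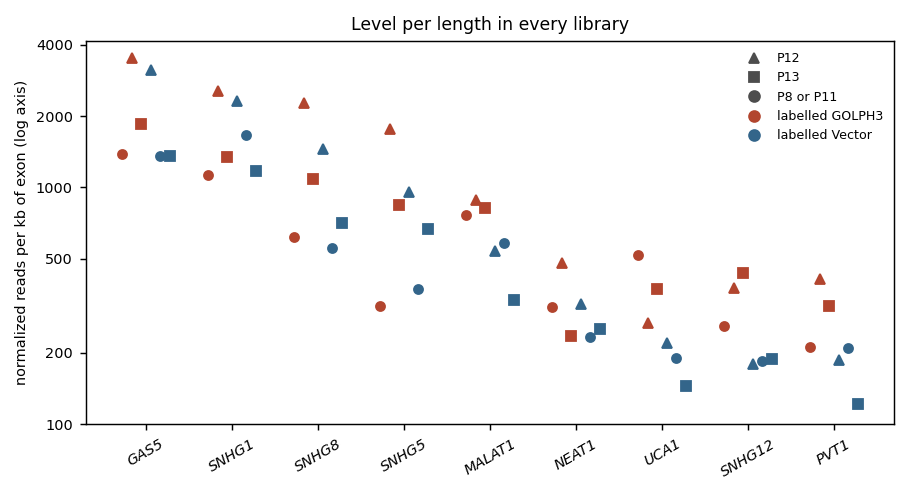
Level of each RNA in normalized reads per kilobase of exon (log axis) in every library, colour for the label and marker shape for the P number. GAS5 and SNHG1 are at the top and PVT1 at the bottom, and for the first 4 RNAs the triangles of both P12 libraries stand above the other points.

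Across the labels, the question was whether any of these RNAs differed between the GOLPH3 and Vector libraries. In limma's test on log2(normalized reads + 1), 0 of the 9 passed an adjusted p under 0.05. Of all genes tested 5.07% did and 0.953% passed as higher. Among genes with a mean of at least 500 normalized reads 3.18% passed. Without adjustment, MALAT1, SNHG12, PVT1 and UCA1 were under 0.05, all with higher means under the GOLPH3 label, beside 17.6% of all genes in either direction and 7.51% higher. DESeq2 on the recovered reads called 1 of the 9, UCA1, beside 5.48% of all genes (1.66% higher), and edgeR called 0 beside 6.58% (1.48% higher). For the same 4 RNAs the libraries of the 2 labels did not overlap, as for 22.0% of all genes, or 9.2% with the GOLPH3 label on top. In the exact two-sided permutation test over libraries each of the 4 had p = 0.1, the smallest that 3 against 3 allows.

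**Figure D2:**
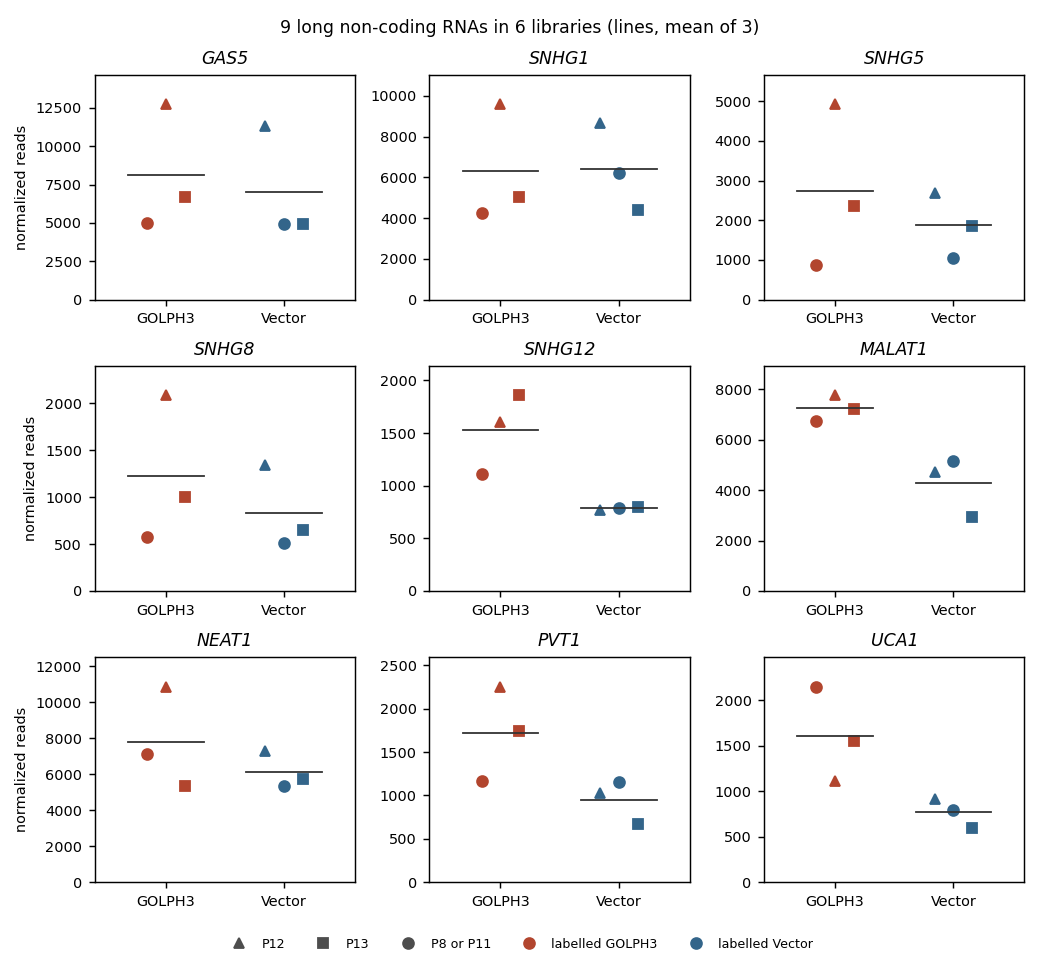
Normalized reads of the 9 RNAs in each of 6 libraries, with the mean of the 3 libraries of a label as a line. SNHG12, MALAT1, PVT1 and UCA1 do not overlap between labels, whereas GAS5, SNHG1, SNHG5, SNHG8 and NEAT1 have both P12 libraries (triangles) on top.

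SNHG12, a snoRNA host on chromosome 1 at 28578538 to 28583132, had 1113, 1608 and 1860 normalized reads in the GOLPH3 libraries at P8, P12 and P13. Its Vector libraries at P12, P11 and P13 had 769, 789 and 801. The Vector libraries lay within a narrow band and every GOLPH3 library lay above it. The means were 1527 ± 380 and 786 ± 16.1 (SD, n = 3 each), a log2 difference of 0.92 (SE 0.29, limma adjusted p = 0.0993). Within pairs the log2 difference was 1.06 at P12, 1.21 at P13 and 0.50 between P8 and P11.

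UCA1, on chromosome 19 at 15828206 to 15836326, had 2150, 1114 and 1551 normalized reads in the GOLPH3 libraries at P8, P12 and P13. It had 912, 793 and 601 in the Vector libraries at P12, P11 and P13. The labels did not overlap, but the GOLPH3 library at P12 and the Vector library at P12 came close, with a log2 difference of 0.29 against 1.37 at P13 and 1.44 between P8 and P11. The means were 1605 ± 520 and 769 ± 157 (SD, n = 3 each), a log2 difference of 1.03 (SE 0.32, limma adjusted p = 0.0975, DESeq2 adjusted p = 0.0454). The annotation places LINC01764 across 7648 bases of UCA1 on the other strand at 6.01 to 41.9 normalized reads, and the sources do not say that strand was used in counting.

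PVT1, which follows MYC on the same strand at a distance of 53099 bases, had 1164, 2254 and 1740 normalized reads in the GOLPH3 libraries at P8, P12 and P13. The Vector libraries at P12, P11 and P13 had 1027, 1151 and 669. The gap between the labels was small, since the P8 library labelled GOLPH3 and the P11 library labelled Vector were nearly level, with a log2 difference of 0.015. At P12 and P13 the log2 differences were 1.13 and 1.38, and the fitted value was 0.84 (SE 0.33, limma adjusted p = 0.205). MYC, a transcription factor of growth, had 4008 to 14861 normalized reads and a label log2 difference of 0.66 (limma adjusted p = 0.416).

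MALAT1, on chromosome 11 at 65497688 to 65506516, had 6767, 7770 and 7232 normalized reads in the GOLPH3 libraries at P8, P12 and P13. The Vector libraries at P12, P11 and P13 had 4735, 5143 and 2945. The GOLPH3 libraries were alike and the lowest value was that of the Vector library at P13. The log2 difference was 0.80 (SE 0.30, limma adjusted p = 0.170), with 0.71 at P12, 1.30 at P13 and 0.40 between P8 and P11.

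The other 5 RNAs overlapped between the labels. Their label log2 differences were 0.47 for SNHG8 (95% confidence interval −0.56 to 1.51), 0.32 for SNHG5 (−0.85 to 1.50), 0.30 for NEAT1 (−0.39 to 1.00), 0.22 for GAS5 (−0.69 to 1.13) and −0.07 for SNHG1 (−0.87 to 0.73), with limma adjusted p between 0.664 and 0.947. These intervals reached above 1 for SNHG8, SNHG5 and GAS5, and a missed threshold does not show that the labels were equal.

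The P number moved the label calls. When limma's model took up the P number as a block (P12, P13, and P8 with P11), the 4 RNAs without overlap were called, all higher under the GOLPH3 label: SNHG12 (adjusted p = 0.00258), UCA1 (0.00462), MALAT1 (0.00688) and PVT1 (0.0193). In that model 20.9% of all genes were called and 9.43% as higher. It left 2 residual degrees of freedom, so its calls lean on the variance that limma shares across genes. A fit with each P number as its own level rests on the P12 and P13 pairs and left fewer still. That fit called 6 of the 9, the 4 named and SNHG5 and SNHG8, all higher, beside 22.9% of all genes (9.93% higher). With the P number as a numeric covariate limma called 1, SNHG12 (adjusted p = 0.0226), beside 9.04% of all genes (3.39% higher). The size of the label difference of PVT1 and UCA1 thus varied from pair to pair, as the plot of differences within pairs shows.

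**Figure D3:**
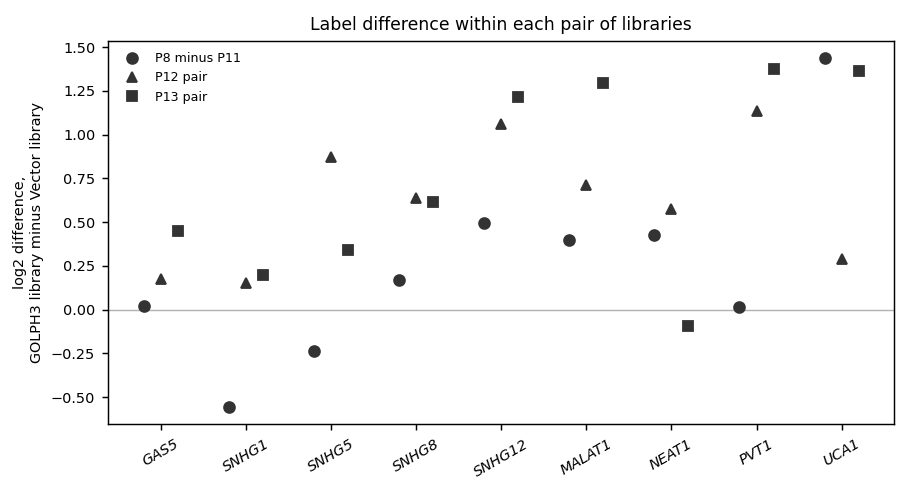
Log2 difference of the GOLPH3 library minus the Vector library within each pair of libraries, 1 value a pair and no error. SNHG12, MALAT1 and UCA1 are above 0 in all 3 pairs, PVT1 is near 0 between P8 and P11 (0.015), and SNHG1 changes sign (−0.56 between P8 and P11).

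Of the 5 snoRNA hosts among the 9, 4 differed between P12 and the other libraries. Over 11267 genes, the deviations of a library from its label's mean correlated with those of the library of the other label in the same P group, at Pearson r of 0.66 for P12, 0.65 for P13 and 0.69 for P8 with P11, whereas the other 6 pairs had r from −0.51 to −0.12. These are descriptions over genes, which are not independent. Deviations from a label's mean also cancel within the label, so positive values for some pairs force negative ones for others. Because P12 occurs under both labels, its libraries were set against the other 4 with the label held equal. Of the 9 RNAs 4 passed limma's test and all 4 were higher at P12: SNHG8, GAS5, SNHG5 and SNHG1. Of all genes tested 4.04% passed and 2.62% as higher, and among the 6954 genes with a mean of at least 500 normalized reads 10.1% passed. On the recovered reads edgeR called the same 4 (6.02% of all genes, 4.21% higher), and DESeq2 called these and NEAT1 (4.12% of all genes, 2.5% higher). Both P12 libraries stood above all 4 others for these RNAs and for NEAT1, 5 of the 9, beside 6.74% of all genes.

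GAS5 lies on chromosome 1 at 173863900 to 173868882 and hosts a series of box C/D snoRNAs. It had 12759 and 11313 normalized reads in the GOLPH3 and Vector libraries at P12. The other libraries had 5000 at P8, 6689 at GOLPH3 P13, 4920 at P11 and 4899 at Vector P13. The P12 pair was well apart from the other 4, with a mean of 12036 against 5377 ± 876 (SD, n = 4). The log2 difference was 1.17 (SE 0.16, limma adjusted p = 0.00201), 1.14 within the GOLPH3 label and 1.20 within the Vector label. ZBTB37 overlaps 801 bases of GAS5 on the other strand and had 314 to 986 normalized reads, with a P12 log2 difference of 0.02 (limma adjusted p = 0.980).

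SNHG8, on chromosome 4 at 118278709 to 118279823, is the shortest of the 9 with 923 bases of exon. It had 2088 and 1341 normalized reads in the GOLPH3 and Vector libraries at P12, against 572 at P8, 1003 at GOLPH3 P13, 509 at P11 and 654 at Vector P13. Again the P12 libraries did not overlap the others. The log2 difference was 1.34 (SE 0.17, limma adjusted p = 0.00154), 1.46 within the GOLPH3 label and 1.21 within the Vector label.

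SNHG5, on chromosome 6 at 85660950 to 85678748, showed both P contrasts. It had 4931 and 2693 normalized reads in the GOLPH3 and Vector libraries at P12. The P13 libraries followed with 2362 and 1866, and the P8 and P11 libraries were lowest with 882 and 1042. All 3 P groups were thus ordered the same way under both labels. The log2 difference of P12 from the other 4 was 1.36 (SE 0.20, limma adjusted p = 0.00348), 1.77 within the GOLPH3 label and 0.95 within the Vector label. Between P13 and the pair of P8 and P11, SNHG5 had a log2 difference of 1.13 (SE 0.24, limma adjusted p = 0.00787). It was the single member of the 9 that passed that comparison, in which 16.9% of all genes passed and 10.0% as higher. With a minimum of 10 in every library SNHG8 passed it too (limma adjusted p = 0.0386), beside 20.1% of all genes as higher.

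SNHG1, on chromosome 11 at 62851988 to 62855914, had 9612 and 8654 normalized reads in the GOLPH3 and Vector libraries at P12. It had 4229 at P8, 5057 at GOLPH3 P13, 6217 at P11 and 4410 at Vector P13. The P12 libraries were the highest, and the P11 library came next. The log2 difference was 0.89 (SE 0.18, limma adjusted p = 0.0184), and it missed the threshold after quantile normalization (adjusted p = 0.0504) and with a pseudocount of 0.1 (0.0567). SLC3A2, which makes the heavy chain of an amino acid transporter, starts 188 bases from SNHG1 on the other strand. It had 24025 and 13012 normalized reads in the GOLPH3 and Vector libraries at P12 and 3472 to 11676 in the others. Its P12 log2 difference was 1.43 (SE 0.16, limma adjusted p = 0.000717).

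NEAT1, on chromosome 11 at 65422774 to 65445540, had 10861 and 7300 normalized reads in the GOLPH3 and Vector libraries at P12. The others had 7137 at P8, 5365 at GOLPH3 P13, 5320 at P11 and 5736 at Vector P13. The 7137 of P8 was close under the 7300 of the Vector library at P12. The log2 difference of 0.61 (SE 0.17) missed the threshold in limma (adjusted p = 0.0804) and passed in DESeq2 (adjusted p = 0.0230).

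The remaining 4 did not pass in the P12 comparison. SNHG12, a snoRNA host like the 4 that rose, had a P12 log2 difference of 0.06 (95% confidence interval −0.34 to 0.46), and those of MALAT1, PVT1 and UCA1 were 0.22, 0.44 and −0.16, with limma adjusted p between 0.376 and 0.924. PVT1 passed when the Vector library at P11 was left out (log2 difference 0.75, limma adjusted p = 0.00420), and its value ran from 0.13 to 0.75 as each library was left out in turn. The upper end of the interval of SNHG12 was below the lower ends of GAS5 (0.82), SNHG5 (0.91) and SNHG8 (0.96) and just below that of SNHG1 (0.49), a side by side reading with no test of the difference between genes.

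**Figure D4:**
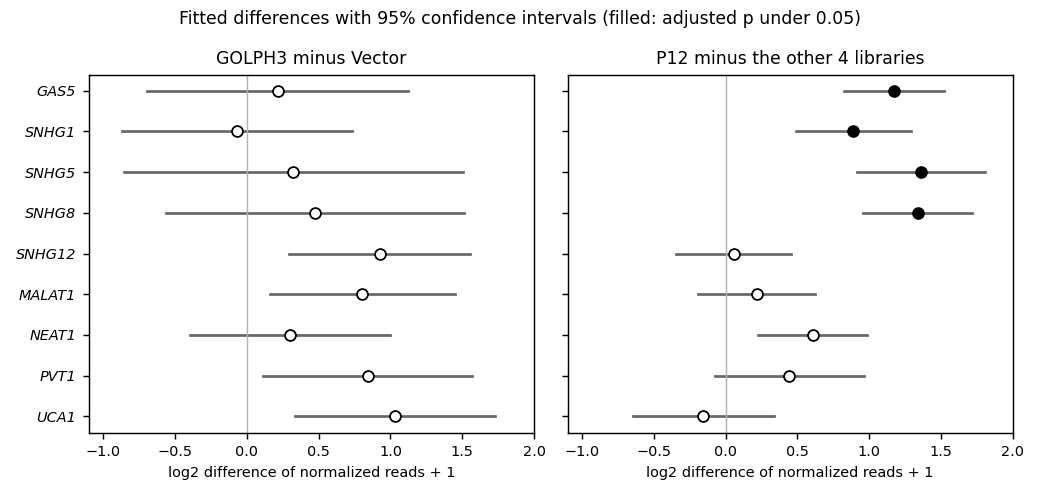
Fitted log2 differences of the 9 RNAs with 95% confidence intervals, by label on the left and P12 against the other 4 libraries on the right, filled where limma's adjusted p was under 0.05. On the left no point is filled, and on the right GAS5, SNHG1, SNHG5 and SNHG8 are, between 0.89 and 1.36.

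The P12 calls rested on both P12 libraries. With either left out, 1 library is left in that group, so only the size of the difference is given. Without the GOLPH3 library at P12 the log2 differences were 1.20 for GAS5, 1.21 for SNHG8, 0.95 for SNHG5 and 0.72 for SNHG1. Without the Vector library at P12 they were 1.14, 1.46, 1.77 and 1.06 in the same order. With all libraries they were 1.17, 1.34, 1.36 and 0.89. Those of SNHG8, SNHG5 and SNHG1 were thus smaller without the GOLPH3 library at P12. That of GAS5 was slightly smaller without the Vector library at P12. The GOLPH3 library at P12 was the deepest of the 6, with 21900764 reads, and the Vector library at P12 held 16507112, fewer than 3 of the others. Mitochondrial genes took 4.41% and 7.08% of reads in the P12 libraries and 4.71% to 9.97% in the others. Whether depth or the mitochondrial share played a part in the P12 differences was not tested. Of all genes 0 (0.0%) passed limma's test of whether the P12 difference itself differed between the labels, and 297 genes (1.12%) were under an unadjusted p of 0.05, with none of the 9 among them.

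Other genes of the same kind were read from lists. Of 29 other snoRNA host genes tested, 5 rose at P12 and 1 fell, with a median log2 difference of 0.07 beside 0.02 over all genes. At P12 4.04% of all genes were called, and 10.1% of those with a mean of at least 500 normalized reads. The 5 were non-coding hosts: EPB41L4A-AS1 (log2 difference 1.72, limma adjusted p = 0.000663), SNHG15 (1.13, 0.00831), ZFAS1 (1.14, 0.0216), SNHG29 (0.80, 0.0252) and SNHG11 (1.03, 0.0433). The one that fell was HSPA8, a protein-coding host that makes a constitutive heat shock chaperone. HSPA8 had 6889 and 5454 normalized reads in the GOLPH3 and Vector libraries at P12 and 17592 to 53930 in the others, a log2 difference of −2.46 (limma adjusted p = 0.000663). By label 0 of the 29 were called, beside 5.07% of all genes. In limma's test 2 were under an unadjusted p of 0.05, beside 17.6%. Between P13 and the pair of P8 and P11, 5 rose and 3 fell. That comparison called 16.9% of all genes and 43.1% of those with a mean of at least 500 normalized reads.

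**Figure D5:**
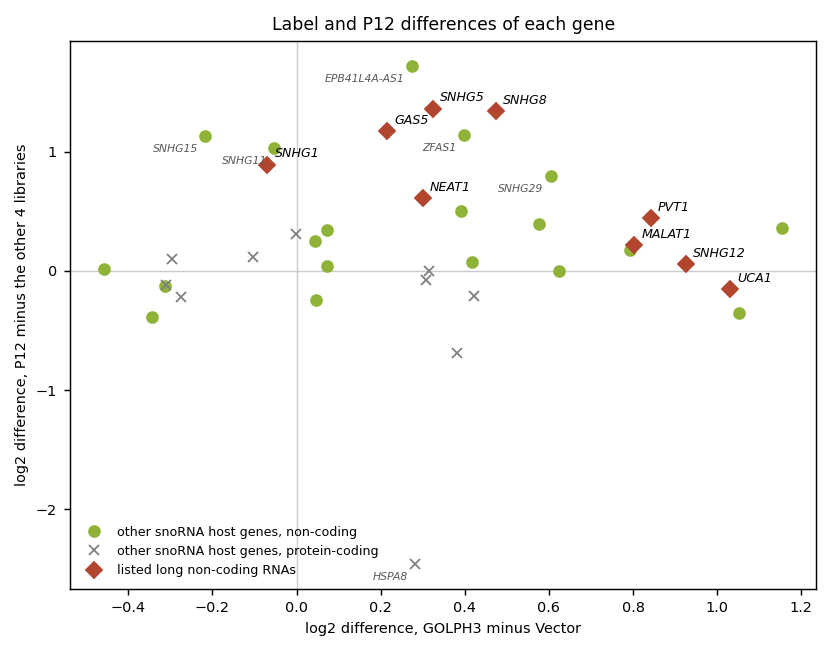
Label log2 difference against P12 log2 difference, 1 point a gene, for the 9 RNAs and the 29 other snoRNA host genes tested. GAS5, SNHG1, SNHG5 and SNHG8 sit high with label differences of −0.07 to 0.47, SNHG12, MALAT1, PVT1 and UCA1 sit to the right, and HSPA8 is alone at the bottom (−2.46).

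Among the 47 autosomal long non-coding RNA genes with a mean of at least 500 normalized reads, 12 were called at P12 (25.5%, beside 10.1% of all genes of that abundance) and all 12 were higher. Between P13 and the pair of P8 and P11, 2 of the 47 rose and 11 fell (27.7%, beside 43.1% of all such genes). Besides the 4 members, the 12 called at P12 were EPB41L4A-AS1, SNHG15, ZFAS1, SNHG29, MIR4435-2HG, AL365181.3, LNCAROD and THAP9-AS1. In a further list of 52 other long non-coding RNAs tested, 4 rose at P12, LUCAT1 (log2 difference 2.22, limma adjusted p = 0.00259), LINC00662 (1.22, 0.00434), CYTOR (1.78, 0.0102) and LINC00467 (0.81, 0.0482), and none fell. By label 1 of the 52 was higher, LINC00511 (log2 difference 1.37, limma adjusted p = 0.0182), and 4 were lower: DLX6-AS1, TP53TG1, HOTAIR (−3.32, 0.0137) and CRNDE (−1.42, 0.0232). DLX6-AS1 and TP53TG1 had no read in any library labelled GOLPH3 and 36.2 to 87.5 and 7.67 to 18.9 normalized reads in the Vector libraries, the same split as the mesenchymal and HEK293-like markers. None of the 9 abundant RNAs was near absent under either label. Between P13 and the pair of P8 and P11, 3 of the 52 rose and 6 fell. Over all genes tested, 4.04% were called at P12, 5.07% by label and 16.9% in this P13 comparison.

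Proteins that work with these RNAs were read beside the shares over all genes, 5.07% called by label, 4.04% at P12 and 16.9% between P13 and the pair of P8 and P11. Of 23 paraspeckle proteins, which gather on NEAT1, 0 were called by label (1 under an unadjusted p of 0.05), and at P12 1 fell, CPSF6 (log2 difference −0.72, limma adjusted p = 0.0198). SFPQ, a paraspeckle protein that binds NEAT1, had a P12 log2 difference of −0.39 (limma adjusted p = 0.213). Of 25 nuclear speckle proteins, the company of MALAT1, 0 were called by label (2 under an unadjusted p of 0.05), and at P12 SRSF2 fell (−0.66, 0.0295) and U2AF1, whose near-identical gene copy makes its count uncertain, rose (1.21, 0.0319). Of 20 nonsense-mediated decay factors, which degrade spliced snoRNA host transcripts, 0 were called by label (1 under an unadjusted p of 0.05), and at P12 SMG9, a regulator of the kinase SMG1, rose (0.90, 0.00976). Between P13 and the pair of P8 and P11, 4 paraspeckle proteins rose and 1 fell, 2 speckle proteins rose and 8 fell, and 2 decay factors rose and 4 fell, in a comparison that called 43.1% of the genes with a mean of at least 500 normalized reads.

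Nearby protein-coding genes were read by position alone. FRMD8, which precedes NEAT1 and MALAT1 on the same strand, had a P12 log2 difference of 0.13 and a label difference of 0.43, neither of which passed. MYC, upstream of PVT1, rose at P12 (log2 difference 0.92, limma adjusted p = 0.00945), with 14861 and 7611 normalized reads at P12 against 4008 to 7724 in the others, so that 1 of the others lay above the Vector library at P12. PVT1 had a P12 log2 difference of 0.44 (limma adjusted p = 0.376). PRSS12, 215 bases from SNHG8, SYNCRIP beside SNHG5 and RCC1 and TAF12 on either side of SNHG12 had P12 log2 differences of −0.08, −0.015, 0.43 and 0.04, none of which passed.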

How the data were processed

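RNA of 6 HCT-116 libraries, 3 per label, was sequenced by the authors. Their deposited signal gives a normalized read count for every gene in every library. The submitters' processing notes name fastp 0.20.0, HISAT2 2.1.0, featureCounts 1.6.1, Cufflinks, DESeq2 and GRCh38, with no role or order, and neither the annotation nor the use of strand is given in the sources used here. In each library 100% of values were whole multiples of 1 constant (tolerance 0.01 read), so whole reads were recovered. Where an identifier had 2 rows (44 cases) the rows were summed, and of 60546 identifiers 96.4% were in GENCODE 29, from which positions and exon lengths were taken. No column of another sample was used.

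Values were tested as log2(value + 1), for genes of at least 1 in at least 3 libraries, with limma 3.58.1 (trend, two-sided, Benjamini-Hochberg adjustment over all genes tested, threshold 0.05) in R 4.3.3. This changes little for abundant genes and understates folds of low ones. The label model had no covariate, as no covariate is stated by the study, and left 4 residual degrees of freedom. The P12 and P13 contrasts came from a model of label and P block, which left 2. Whole reads were also tested with edgeR 4.0.16, whose quasi-likelihood test called 1113 genes by label, and DESeq2 1.42.0, which called 1991. Other alternatives were quantile normalization, a pseudocount of 0.1, no filter, a minimum of 10 in every library, the replicate number or P number as a term and leaving out each library. Confidence intervals are at 95%, and values at or under 3 reads were read as not detected, which covers counting error only.

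On simulated counts with 200 genes changed by a log2 of 2, limma recovered 170 with 7 false calls for the label (27377 genes) and 163 with 10 for P12 (27313 genes). The counts had a dispersion of 0.1 and no further difference between libraries except depth. They do not give the power for the 9 RNAs, whose fitted differences were smaller. Within labels no pair of libraries agreed within sampling noise (chi-square per degree of freedom 110 to 225). The genes named are the 9 members, from each of 8 lists the 3 with the smallest p by label and at P12, the neighbours by position (some are not reported here), and for each member the 3 genes most correlated with it (mean of at least 100 normalized reads). The names of called list genes beyond these were added after their values were seen. The members and lists were chosen with earlier results of these data known, the mesenchymal and HEK293-like list in part from them.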

Additional observations from a re-analysis of the deposited data

Results flagged for a closer look

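UCA1 moved in opposite directions between the P numbers under the labels. Its log2 difference of P12 from the other libraries was −0.713 within the GOLPH3 label, where the P12 library was the lowest of 3, and 0.401 within the Vector label, where it was the highest of 3. The test of the difference between the labels gave a log2 of −1.11 with a 95% confidence interval of −2.76 to 0.53 (limma adjusted p = 1.00), so the difference did not pass.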

How the results depend on the processing

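Of the results for single RNAs under other settings, 123 of 144 kept direction and side of the threshold in the label comparison, 96 of 117 in the P12 comparison and 98 of 108 in the P13 comparison. By label, a minimum of 10 in every library called 170 genes in place of 1346, and DESeq2 called 1 of the 9 RNAs, UCA1, and 603 genes higher and 1388 lower. The P block called 5549 genes and 4 of the 9, each P number as its own level 6082 and 6, and the P number as a covariate 2399 and 1. In these last 2 fits the label log2 difference of SNHG1 turned to 0.17 and 0.0063. At P12, quantile normalization called 628 genes and a pseudocount of 0.1 called 555, against 1073. Without the label term limma called 0 genes and 0 of the 9. In that fit the label difference of a gene is part of its residual spread. Whether this moved the calls was not tested. In the P13 comparison a minimum of 10 called 2 of the 9, SNHG5 and SNHG8, and quantile normalization split the calls as 1813 higher and 1877 lower against 2658 and 1816. Where no value is named as showing it, the cause was not tested.

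Leaving out each library in turn gave 459 (without the Vector library at P12) to 1528 genes by label, 53 to 2410 at P12 (without the GOLPH3 library at P12 and without that of Vector at P11) and 2049 to 5275 for P13, of which the lowest was without the Vector library at P13. It called 0 of the 9 by label, 0 to 5 at P12 and 1 to 2 for P13, where PVT1 joined SNHG5 as lower without the P8 library, MALAT1 as lower without the GOLPH3 library at P13 and SNHG8 as higher without the P11 library. By label the log2 differences ran from −0.17 to 0.62 for GAS5, −0.42 to 0.17 for SNHG1, −0.27 to 0.97 for SNHG5 and −0.0129 to 0.92 for SNHG8, the lowest in each case without the GOLPH3 library at P12. At P12 they ran from −0.10 to 0.22 for SNHG12 and −0.71 to 0.40 for UCA1. For P13 they ran from −0.72 to 0.016 for MALAT1, −0.45 to 0.15 for NEAT1, −0.48 to 0.25 for SNHG1 and −0.72 to 0.52 for PVT1. With 1 library left in an arm, its spread is assumed to be that of the others.

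The replicate numbers did not pair the libraries: the correlations of deviations for the same number were −0.51, −0.29 and 0.65, the last for the pair that also shares P13. With the replicate block 1081 genes (178 higher, 903 lower) and 0 of the 9 were called by label.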

Other observations

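Genes whose log2 levels followed a member most closely over the 6 libraries are given as a description, since the highest of 11249 correlations over 6 points that share their libraries is high by choice. For GAS5 these were MAP1LC3B (Pearson r 0.996), which makes the autophagosome protein LC3B, AREG (0.989), an EGF receptor ligand, and FBXO32 (0.988). MAP1LC3B had 12115 and 11020 normalized reads in the GOLPH3 and Vector libraries at P12 and 2362 to 3772 in the others. For SNHG8 they were UPP1 (0.998), a uridine phosphorylase, PLAU (0.997), the urokinase gene, and RASSF1 (0.996). UPP1 had 34002 and 9445 normalized reads at P12 and 437 to 3703 in the others, a P12 log2 difference of 4.03. SNHG5 was followed by KCNK5 (0.998), KIF21B (0.994) and MAP1LC3B2 (0.991), the last uncertain because of its near-identical relative MAP1LC3B. SNHG1 was followed by LAMP3 (0.995), ADO and RRAS2 (0.992 each), and NEAT1 by PARP6 (1.00), NPIPA9 (0.989, a member of a family of near-identical copies) and ZNF609 (0.985). Those of SNHG12 were DUSP23 (0.997), DENND3 (0.994) and CNTD2 (0.991), those of MALAT1 METTL2A (0.993), MBP (0.992) and SEL1L3 (0.990), those of PVT1 PCYT1A (0.989), DAPP1 (0.982) and GDA (0.981), and those of UCA1 C5AR1 (0.989), NPIPB5 (0.979, of the same family as NPIPA9) and WWC3 (0.976).

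Of 25 p53 target genes, 6 rose at P12 and 1 fell in limma's test. Of all genes 4.04% were called, and 10.1% of those with a mean of at least 500 normalized reads. The list as a whole was not shifted upward, with 12 of the 25 above 0 and a median log2 difference of −0.04 beside 0.02 over all genes. SESN2 (log2 difference 2.23), GADD45A (1.92), TNFRSF10B (1.35), BBC3 (1.17), AEN (1.00) and CDKN1A (0.81) rose, and TP53INP1 (−1.05) fell. By label 1 was called, PLK3, higher under the GOLPH3 label (log2 difference 1.55, limma adjusted p = 0.0441), beside 5.07% of all genes. Between P13 and the pair of P8 and P11 12 rose and 5 fell, beside 16.9% of all genes and 43.1% of those with a mean of at least 500 normalized reads. Of 17 colon epithelial markers tested, 3 were higher by label, KRT19, ELF3 and KRT18, with log2 differences of 1.92, 1.58 and 1.26, and 0 were lower. The values of 15 of the 17 were above 0, and those of CEACAM6 (−1.79) and CDX2 (−0.52) were below 0 and did not pass.

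Of 13 snoRNA genes that lie wholly within SNHG1, SNHG5, SNHG8 or SNHG12 on the host's strand, 12 had 0 reads in every library, where a count of 0 allows up to 3 reads, and SNORD99 within SNHG12 had 3 to 35 reads. The snoRNAs of GAS5 were not analysed here. Of 5 miRNA genes within members 4 had 0 reads, and MIR1205 within PVT1 had 0 to 5.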
